A study of Arabidopsis thaliana with 9 samples.

Results

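The comparison described here sets the transcript levels of 3 arrays of a line named sps1 against those of 3 arrays of a line named L17, which are 6 of the 9 arrays of the study. The RNA came from whole Arabidopsis thaliana seedlings harvested after 10 days in darkness, with no further treatment. The labels place both lines in the Col-0 background, give the genotype of one as sps1 and describe the other as L17 phyA' line, and do not say which alleles or transgenes either carries. Neither line is therefore treated as the parent or the control of the other, and each difference is given as sps1 minus L17. The remaining 3 arrays, of wild type Col-0 seedlings of the same age, entered no test here and serve as a description only. The arrays of each line were identified by their titles.

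A seedling that germinates in the dark spends its reserves on elongation of the hypocotyl, keeps its cotyledons closed and forms etioplasts in place of green chloroplasts. Nuclear genes for photosynthesis are held down in this state, and photoreceptors release them when light arrives. Elongation of the hypocotyl depends on proteins that loosen the cell wall, among them expansins and the enzymes that cut and rejoin xyloglucan.

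Each value is the signal of a probe set, a group of short oligonucleotides on an Affymetrix array that report 1 transcript, on the linear scale on which it was deposited. Median signals of the 6 arrays lay between 137.6 and 153.4, and between 19.0% and 21.3% of their probe sets lay under a signal of 16. Across probe sets, log2 signals correlated at 0.980 to 0.987 within a line (6 pairs of arrays) and at 0.962 to 0.972 between the lines (9 pairs), and probe sets are not independent replicates. The etiolated seedling was represented by PORB, the protochlorophyllide reductase that loads etioplasts, with signals of 3596, 4479 and 4669 in sps1 and 4486, 4054 and 5188 in L17, which did not pass the test (log2 difference -0.11 ± 0.16 SE, adjusted p = 0.738). The ubiquitin control, whose probe sets at the 3' and 5' ends show how far RNA was degraded, gave a ratio of 3' over 5' signal of 2.49 ± 0.066 in sps1 and 2.32 ± 0.103 in L17 (SD, n = 3, exact two-sided permutation p = 0.2, 0.6 after adjustment over 3 controls), and with 3 arrays a line no such p can be lower than 0.1. Wild type replicate 3 differed from its line, at r = 0.954 with replicates 1 and 2, which had r = 0.986 with each other, so statements on wild type below are given with and without it or per array. The labels do not say whether the arrays of a line came from separate batches of plants, and the p-values reflect no more than the spread among these arrays, which may be technical.

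Many transcripts differed between the lines, in both directions and often by a wide margin. Of 22746 probe sets, 2074 (9.12%) passed an adjusted p of 0.05 in limma on log2(signal + 16). In sps1 906 (3.98%) were higher and 1168 (5.13%) were lower, with a median size of 0.93 log2 units. With 1 array left out in turn, whichever of the 6 it was, the number past the threshold fell to between 843 and 1283. The share of these probe sets that were higher in sps1 was 43.7% on the deposited scale, 49.4% after quantile normalization and 56.7% after median centring of the arrays, so neither direction outweighed the other under every scaling. Centring by medians moved the median difference of all probe sets from -0.02 to 0.07 log2 units. The 3 arrays of one line all lay above the 3 of the other for 6977 probe sets (30.7%), and 5460 (24.0%) had an unadjusted p under 0.05. All 2074 probe sets past the threshold were among the 6977, so a lack of overlap adds nothing to the call of a gene below. A difference of at least 2-fold went with the call in 915 probe sets (4.02%), of which 344 were higher and 571 lower in sps1, and at least 8-fold in 34, 16 of them higher.

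**Figure D1:**
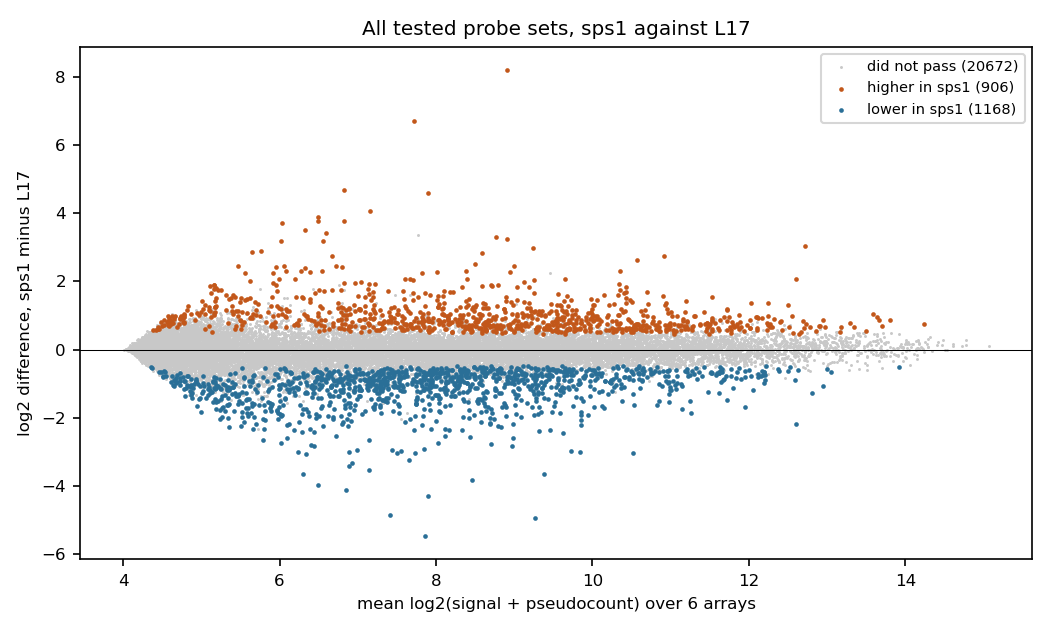
Log2 difference between the lines (sps1 minus L17, vertical axis) against the mean log2(signal + 16) over the 6 arrays (horizontal axis) for 22746 probe sets. The 906 probe sets higher in sps1 and the 1168 lower in sps1 lie over the whole range of signals, and the highest and lowest of the unnamed ones reach 8.19 and -4.92.

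A gene name was at hand for 13356 genes, and 1103 of these (8.26%) passed the threshold, 483 (3.62%) higher and 620 (4.64%) lower in sps1, and 488 (3.65%) passed with a difference of at least 2-fold. Another 963 probe sets past the threshold carried no single gene name and are not described further. They include the largest rise of all, of 8.19 log2 units, and a fall of -4.92. Counts of gene groups below are to be read against these shares of all named genes, whose median log2 difference was -0.02. Of all 13356, 6391 had a positive and 6965 a negative difference, whether or not they passed. Most groups were matched by symbol or synonym, and of the 1556 named genes with a symbol 177 passed. Family members without such a name are not counted. With 1 array left out most group counts were lower, and the range over the 6 such fits is given beside the count as its leave-one-out range. A locus without a symbol is given by its identifier only.

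The largest differences came from genes that read at or near the floor of the array in one line and clearly above it in the other. AT1G23960 read 2007, 2244 and 2114 on the sps1 arrays and 3.87, 9.59 and 1.35 on the L17 arrays. Its log2 difference of 6.69 ± 0.17 (SE, adjusted p = 4.28e-05) was the highest of any named gene. AT4G19240 read 439, 569.7 and 694 in sps1 and 6.33, 7.75 and 5.48 in L17, a log2 difference of 4.67 ± 0.18 (SE, adjusted p = 0.000243). In both cases every sps1 array lay far above every L17 array. With one line at the floor, the size of such a difference depends on the constant added to the signal, which the SE does not cover. Over the alternatives run it was 4.99 to 8.74 for AT1G23960 and 3.14 to 6.23 for AT4G19240.

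In the opposite direction AT5G23830 read 54.5, 12 and 5.62 in sps1 and 1269, 1821 and 1505 in L17, with a log2 difference of -5.45 ± 0.43 (SE, adjusted p = 0.00157). AT1G52100 read 15.3, 25.4 and 9.08 in sps1 and 955, 765 and 970.4 in L17, a difference of -4.83 ± 0.21 (SE, adjusted p = 0.000437). The sps1 arrays were the low ones, without overlap, for both genes. AT4G19500 was at 3.42, 19.6 and 1.26 in sps1 and at 337, 378 and 302 in L17 (-3.95 ± 0.28 SE, adjusted p = 0.00122). Over the alternatives these 3 falls were -4.21 to -6.49, -3.57 to -5.77 and -2.49 to -5.84.

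There were 14 named genes whose signal was under 50 on all arrays of one line and over 200 on all arrays of the other, limits chosen after the values were seen, 7 in each direction. Low in sps1 were AT1G47980, AT1G52100, AT2G43550, AT4G19500, AT5G20580, AT5G38030 and AT5G41660. Low in L17 were AT1G10110, AT1G23960, AT4G13860, AT4G19240, AT4G19730, AT5G20460 and AT5G27750. The wild type signals of these 14 genes did not follow one line. AT1G23960 read 1837, 2136 and 1875 on the wild type arrays, on the level of sps1, whereas AT4G19240 read 7.11, 33.8 and 15.1, near the level of L17. AT5G41660 read 22.9, 53.3 and 11 in wild type, near sps1, and AT1G52100 read 1623, 1409 and 877, near L17.

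**Figure D2:**
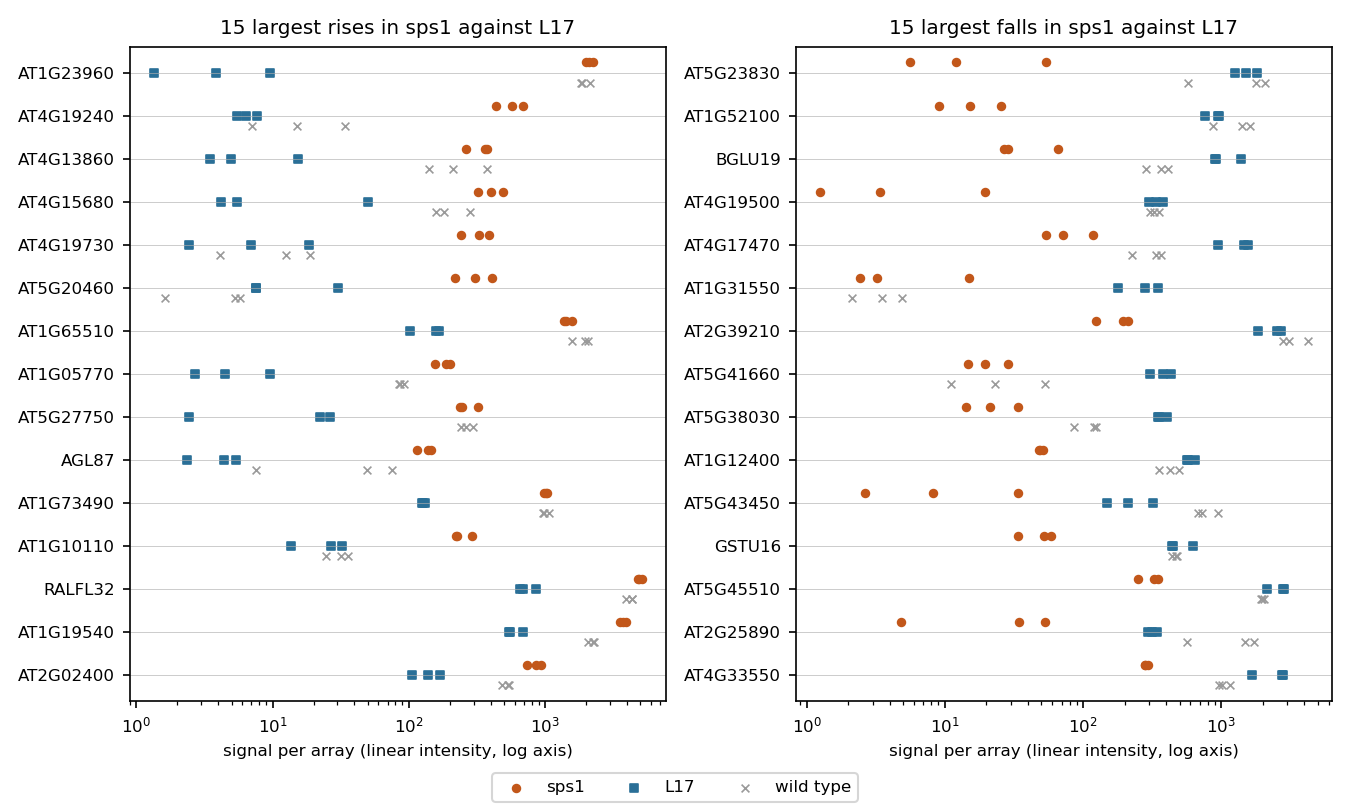
Signal on each array (log axis) for the 15 named genes that rose most (left) and the 15 that fell most (right) in sps1 against L17, with circles for sps1, squares for L17 and crosses for wild type, 3 arrays each. The genes were taken from those whose circles and squares do not overlap. The crosses lie by the circles for some genes (AT1G23960), by the squares for others (AT1G52100) and between or beyond them for the rest.

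All 30 genes of the 15 largest rises and falls stayed past the threshold with any one array left out, and AT5G43450 and AT2G25890 lost the call with a pseudocount of 1. Among the rises with a symbol were a signalling peptide and a transcription factor. RALFL32 encodes a rapid alkalinization factor, a family of small secreted peptides that receptor kinases of the cell surface perceive. Its signals were 5143, 4834 and 4903 in sps1 and 658, 691 and 861 in L17, a log2 difference of 2.73 ± 0.14 (SE, adjusted p = 0.000561). This peptide family had 11 measured members with a median log2 difference of 0.027, of which 2 rose and 1 fell (leave-one-out range 1 to 1). AGL87, a MADS box transcription factor, was near the floor in L17 (4.38, 5.36 and 2.34) and at 146, 138 and 115 in sps1, a difference of 2.89 ± 0.14 (SE, adjusted p = 0.000489). Of the 42 measured MADS box genes 1 rose and 1 fell (4.76% past the threshold, leave-one-out range 2 to 3), and the one that fell was AGL59 (-1.57, adjusted p = 0.00226).

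BGLU19, a beta-glucosidase of glycoside hydrolase family 1, was the gene with a symbol that fell most. It read 65.8, 27 and 28.5 in sps1 and 1382, 923 and 898 in L17, a log2 difference of -4.30 ± 0.30 (SE, adjusted p = 0.00114), and the wild type arrays lay in between at 411, 368 and 287. GSTU16, a glutathione S-transferase of the tau class, read 33.9, 58.9 and 52.4 in sps1 and 625, 442 and 449 in L17, a difference of -3.02 ± 0.21 (SE, adjusted p = 0.00116). Enzymes of these families act on glucosides and on reactive or foreign compounds. No sps1 array reached the level of any L17 array for either gene.

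Genes of the photosynthetic apparatus that are encoded in the nucleus were among the groups with more rises than falls in sps1. Of 7 listed subunits of the photosystems, the plastid ATP synthase and Rubisco with its activase, 3 rose and none fell (42.9% past the threshold against 8.26% of all named genes). All 7 differences were positive, with a median of 0.47. The list does not hold every measured subunit. ATPC2, a gamma subunit of the plastid ATP synthase, was counted in the NDH and assembly list below and fell. PSBY, a small subunit of photosystem II, read 5869.8, 6347 and 5940.2 in sps1 and 3339.9, 2388 and 3731 in L17 (0.96 ± 0.18 SE, adjusted p = 0.0259). Its 3 sps1 arrays were close together and above all L17 arrays.

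PSAN, a lumenal subunit of photosystem I, rose by 0.79 ± 0.16 log2 units (SE, adjusted p = 0.0283) and RCA, the activase that keeps Rubisco working, by 0.65 ± 0.14 (SE, adjusted p = 0.0387), which did not pass after quantile normalization. Each of these calls was lost without any one sps1 array, that of PSBY also without L17 replicate 1, that of PSAN without L17 replicate 2 or 3 and that of RCA without L17 replicate 1 or 2 (adjusted p up to 0.083, 0.0916 and 0.13). Without sps1 replicate 1, 2 or 3 none of the 7 genes passed, without L17 replicate 1 or 2 a single one did, and without L17 replicate 3 there were 2. No member passed with a pseudocount of 1.

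The plastid NDH complex, which carries electrons back from photosystem I to the plastoquinone pool, was represented by 17 genes together with assembly factors of the photosystems. Their median was 0.20, with 4 rises and 2 falls past the threshold (leave-one-out range 1 to 6). PSB27, an assembly and repair factor of photosystem II, read 5833, 5986 and 6444 in sps1 and 3636, 2813 and 3041 in L17. This was a log2 difference of 0.95 ± 0.14 (SE, adjusted p = 0.0106). It passed with any one array left out, but not with the replicate number added to the fit. NdhL, a subunit of the complex, read 343, 459.6 and 398 in sps1 and 117, 76.1 and 169 in L17, the widest difference of the group at 1.65 ± 0.26 (SE, adjusted p = 0.015). PIFI, a protein needed for the activity of the complex, rose by 1.04 ± 0.17 (SE, adjusted p = 0.0165), and the subunit NdhN by 0.75 ± 0.17 (SE, adjusted p = 0.0394). The falls were those of PAM68, an assembly factor of photosystem II (-0.79 ± 0.15 SE, adjusted p = 0.0239), and ATPC2, a gamma subunit of the plastid ATP synthase (-0.76 ± 0.16 SE, adjusted p = 0.0328). ATPC2 no longer passed after median centring, ATPC2 and NdhN with a pseudocount of 1, and NdhN with all 9 arrays in the fit. Apart from that of PSB27, these calls were lost without certain arrays. NdhL lost it without L17 replicate 1 or without sps1 replicate 2 or 3, with an adjusted p of up to 0.0544. PIFI lost it without L17 replicate 1 or 2 or sps1 replicate 2 or 3 (up to 0.0658). NdhN, PAM68 and ATPC2 lost it without any array other than L17 replicate 3 (up to 0.12, 0.0868 and 0.11).

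Of 5 light-harvesting genes 2 rose and none fell (leave-one-out range 1 to 2). LIL3:1, a light-harvesting-like protein that anchors enzymes of chlorophyll synthesis in the membrane, read 1002, 1215 and 1384 in sps1 and 446, 573 and 443 in L17. Its log2 difference of 1.27 ± 0.17 (SE, adjusted p = 0.00876) held with any array left out. CHLM, the methyltransferase that acts after magnesium has entered the porphyrin ring, read 4028, 4533 and 4990.3 in sps1 and 2727, 2225 and 2554 in L17 (0.85 ± 0.14 SE, adjusted p = 0.0168), and it was lost without L17 replicate 2 or sps1 replicate 2 or 3 (adjusted p up to 0.0658). It was the 1 of 9 tetrapyrrole genes that passed (11.1%, leave-one-out range 0 to 1). LHCB4.1, a minor antenna protein of photosystem II, rose by 0.70 ± 0.15 (SE, adjusted p = 0.0347) and lost the call without any array other than L17 replicate 1 (adjusted p up to 0.112), after quantile normalization and with a pseudocount of 1. Its relatives LHCB4.2 and LHCB4.3 had log2 differences of 0.31 and -0.28 (adjusted p = 0.227 and 0.263).

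**Figure D3:**
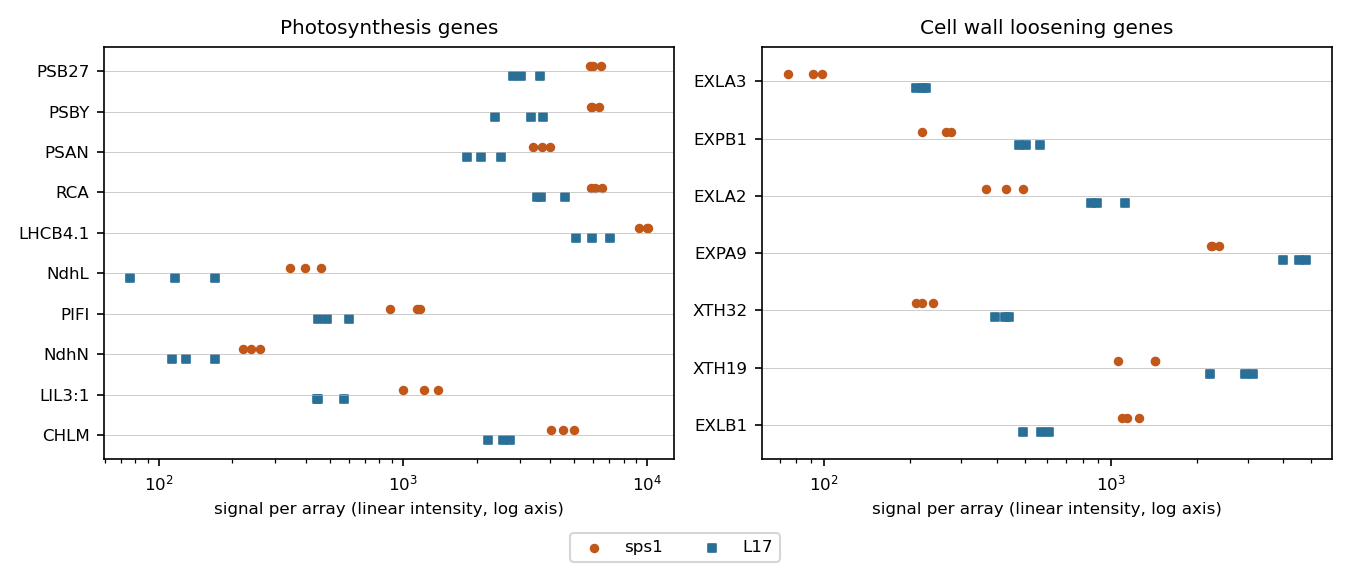
Signal on each array (log axis) of 10 genes of photosynthesis and chlorophyll synthesis (left) and 7 cell wall loosening genes (right) that passed the threshold, with circles for sps1 and squares for L17, 3 arrays each. The 10 genes on the left were picked from those that rose, and falls such as those of PAM68, ATPC2 and psaC are not drawn. In the right panel the circles lie to the right of the squares for EXLB1 and for none of the other 6.

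Few of the genes that the plastid itself encodes passed. Of 69 measured, 1 rose, 2 fell and 66 did not pass (4.35% past the threshold, leave-one-out range 1 to 5), with a median log2 difference of -0.18. The iron-sulfur subunit of photosystem I, psaC, read 95.4, 91.2 and 149 in sps1 and 463, 301 and 469 in L17 (-1.74 ± 0.24 SE, adjusted p = 0.00948). The cytochrome b559 gene psbE rose by 0.61 ± 0.14 (SE, adjusted p = 0.0407), a call lost without any array other than L17 replicate 3 (adjusted p up to 0.136) and with a pseudocount of 1. Of 16 mitochondrial genes 2 fell (12.5% past the threshold, leave-one-out range 0 to 1), nad4 (-1.13) and ccb452 (-0.65), and both were lost without L17 replicate 1 or 2 or any one sps1 array (adjusted p up to 0.0858 and 0.117). Without L17 replicate 3 and under quantile normalization or median centring ccb452 was lost as well, and with a pseudocount of 1 neither passed.

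Light signalling was represented by 4 genes, of which 1 rose (leave-one-out range 0 to 1). HYH, a bZIP transcription factor related to HY5 that promotes light responses, read 106, 102 and 101 in sps1 and 27.6, 26.2 and 2.07 in L17. The 3 sps1 arrays agreed closely and the third L17 array lay far below the other two, which gave a log2 difference of 1.89 ± 0.34 (SE, adjusted p = 0.0216). The call was lost without any one sps1 array (adjusted p up to 0.0682) and with a pseudocount of 1. GI, AFR and FHL had differences of 0.24, 0.12 and 0.12 and did not pass.

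Genes that loosen the cell wall were mostly lower in sps1. Of 27 measured expansins, expansin-like genes and xyloglucan endotransglucosylases, 8 fell, 1 rose and 18 did not pass (33.3% past the threshold, leave-one-out range 6 to 8). The median log2 difference was -0.45, 22 of the 27 differences were negative, and for 16 genes all 3 sps1 arrays lay below all 3 L17 arrays, which held for 2112 of all 13356 named genes (15.8%). The corresponding shift was present under quantile normalization (median -0.43) and median centring (-0.36). EXPA9, an alpha-expansin, read 2229, 2385 and 2252 in sps1 and 3992, 4523 and 4798 in L17 (-0.95 ± 0.12 SE, adjusted p = 0.00744). EXLA3, an expansin-like gene, read 98.3, 74.7 and 91.2 in sps1 and 209, 227 and 222 in L17, the widest fall that passed (-1.18 ± 0.13 SE, adjusted p = 0.00451). Falls of similar size were measured for EXPB1, a beta-expansin (-0.99 ± 0.14 SE, adjusted p = 0.00971), for EXLA2 (-1.12 ± 0.17 SE, adjusted p = 0.0112) and for XTH32, a xyloglucan endotransglucosylase (-0.87 ± 0.12 SE, adjusted p = 0.00848).

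The rise in this group belonged to EXLB1, an expansin-like gene of another subfamily, with 1143, 1249.6 and 1090.1 in sps1 and 496, 611 and 569.5 in L17 (1.04 ± 0.13 SE, adjusted p = 0.00704). EXLB1 and the 5 falls with values above passed with any array left out. XTH19, another xyloglucan endotransglucosylase, read 1424, 1062 and 1420.4 in sps1 and 2227, 3122 and 2947 in L17 (-1.07 ± 0.19 SE, adjusted p = 0.02). It lost the call without L17 replicate 2 or 3 or sps1 replicate 2 or 3 (adjusted p up to 0.0763). EXPA20 and XTH16, at -0.81 and -0.71, lost it without any array other than sps1 replicate 3 (adjusted p up to 0.106 and 0.118), XTH16 also after median centring and both with a pseudocount of 1. EXPA8 read 4769, 4505 and 5029 in sps1 and 5804, 5611 and 6616 in L17 and did not pass (-0.33, adjusted p = 0.162).

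Other groups of wall growth were measured as well. Among 15 endoglucanases of glycoside hydrolase family 9, which cut glucan chains, 1 rose and 2 fell (leave-one-out range 0 to 3), with a median of -0.47. GH9C2 read 841, 936 and 772 in sps1 and 1375, 1727 and 1842 in L17 (-0.94 ± 0.16 SE, adjusted p = 0.0167), and lost the call without L17 replicate 2 or sps1 replicate 1 or 3 (adjusted p up to 0.069). TUB1, a beta-tubulin, was the 1 of 7 tubulins that passed (14.3%), with 2146, 2301 and 2502 in sps1 and 3331, 3569 and 4287 in L17 (-0.68 ± 0.14 SE, adjusted p = 0.034), and the call was lost without any one of the 6 arrays (leave-one-out range 0 to 0, adjusted p up to 0.098) and with a pseudocount of 1. Of 22 trichome birefringence-like genes, which act in wall acetylation, 2 fell (9.09%, near the 8.26% of all named genes, leave-one-out range 0 to 1). None passed after median centring or with a pseudocount of 1. Of the 16 auxin genes, 3 passed as higher in sps1 and none as lower (leave-one-out range 1 to 2). For YUC4, an enzyme of auxin synthesis, the signal was near the floor in both lines, with 17.2, 18.5 and 23.2 in sps1 and 1.57, 3.3 and 1.03 in L17 (0.99 ± 0.12 SE, adjusted p = 0.00713). Its difference was 0.34 to 2.86 over the alternatives, so its size is not known from these arrays. IAA34 and IAA20, members of the Aux/IAA repressor family, rose by 0.90 and 0.61 and lost the call, IAA34 without L17 replicate 2 or 3 or sps1 replicate 1 or 2 and IAA20 without any one array (adjusted p up to 0.0727 and 0.0983). IAA20 lost it also with all 9 arrays in the fit and with a pseudocount of 1.

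Genes for proteins that accumulate in ripening seeds and under drought included clear falls in sps1. Of 9 measured late embryogenesis abundant and seed storage genes, 4 fell, none rose and 5 did not pass (44.4% past the threshold, leave-one-out range 3 to 3), with a median of -0.54. LTI30, a dehydrin, read 416, 378 and 392 in sps1 and 1149, 1299.6 and 1376 in L17 (-1.65 ± 0.12 SE, adjusted p = 0.00136). LEA18 read 1078, 996 and 979 in sps1 and 3821, 2612 and 3165 in L17 (-1.62 ± 0.16 SE, adjusted p = 0.00335), and AtLEA4-1 read 1309, 1040.0 and 1149.6 in sps1 and 3639.5, 3166 and 3466 in L17 (-1.54 ± 0.13 SE, adjusted p = 0.00221). For these 3 genes the highest sps1 array lay below the lowest L17 array by a clear margin. The calls held with any array left out, and that of AtLEA4-1 was lost with all 9 arrays in the fit. The oil body protein gene OLEO3 fell less (-0.63 ± 0.12 SE, adjusted p = 0.0257), a call lost without any one of the arrays (adjusted p up to 0.0854).

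Other genes of this list varied widely within a line. PAP85, a seed storage protein of the cupin family, read 52.1, 261 and 209 in sps1 and 70.6, 812 and 1.99 in L17, and M17, a late embryogenesis gene, read 142, 670.3 and 758 in sps1 and 280.0, 1228 and 32.1 in L17. Neither passed (adjusted p = 0.844 and 0.764), and L17 replicates 2 and 3 lay at opposite ends for both. The part of ungerminated or late seeds in the fall of the other members was not tested. Vacuolar processing enzymes, proteases that mature storage proteins in the vacuole, included 2 falls among 4 measured genes (leave-one-out range 1 to 2). BETA-VPE, the form best known from seeds, read 300.2, 327 and 319.7 in sps1 and 947, 675 and 673 in L17 (-1.22 ± 0.16 SE, adjusted p = 0.00856), a call lost with all 9 arrays in the fit. DELTA-VPE fell (-1.53 ± 0.31 SE, adjusted p = 0.0292) and lost the call without L17 replicate 3 or any one sps1 array (adjusted p up to 0.0933) and with a pseudocount of 1. GAMMA-VPE, the vegetative form, read 10027, 9392 and 9184 in sps1 and 9666, 8891 and 9489.8 in L17 and did not pass.

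Single genes of defence and stress families passed in both directions. PDF1.4, a plant defensin, read 219.9, 253 and 320.0 in sps1 and 1529, 1491 and 1307 in L17 (-2.39 ± 0.16 SE, adjusted p = 0.0011). ChiC, a class V chitinase, read 83.6, 81.2 and 68.5 in sps1 and 433, 359.7 and 383 in L17 (-2.12 ± 0.13 SE, adjusted p = 0.00087). PRX52, a class III peroxidase of the cell wall linked to lignin, was near the floor in sps1 (9.19, 27.7 and 16.1) and at 196, 177 and 289 in L17 (-2.82 ± 0.26 SE, adjusted p = 0.00247). As in every probe set past the threshold, the lines did not overlap in these genes, and the calls held with any array left out. Of 5 defensins, with a median of 0.07, 2 fell (leave-one-out range 1 to 2), the other being PDF2.5 (-1.24, adjusted p = 0.0182), which lost the call without L17 replicate 2 or sps1 replicate 2 or 3 (adjusted p up to 0.0625) and with all 9 arrays in the fit. Of 6 class III peroxidases 3 fell (leave-one-out range 2 to 3), none rose and all 6 differences were negative. The others that fell were AT2G41480 (-1.38, adjusted p = 0.0106) and AT5G66390 (-0.62, adjusted p = 0.0322), whose RefSeq synonyms are PRX25 and PRX72. AT5G66390 was lost after median centring, with a pseudocount of 1 and without any array other than L17 replicate 3 (adjusted p up to 0.115).

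Among 22 beta-glucosidases of glycoside hydrolase family 1, 5 fell and 2 rose (leave-one-out range 2 to 5) and the median was -0.046. BGLU28 read 4.52, 4.14 and 14.3 in sps1 and 61.1, 80.3 and 85 in L17 (-1.97 ± 0.20 SE, adjusted p = 0.00364), a call lost with all 9 arrays in the fit. PYK10, the abundant beta-glucosidase of the bodies that the endoplasmic reticulum forms in seedlings and roots, read 18976, 14228 and 16265 in sps1 and 15443, 14705 and 17222 in L17 and did not pass (adjusted p = 0.865). Of 14 glutathione S-transferases 2 fell and 1 rose (leave-one-out range 1 to 3), and without L17 replicate 3 the numbers were 1 and 2. Falls were also measured for GRX480, a glutaredoxin of salicylic acid signalling (-1.76 ± 0.14 SE, adjusted p = 0.00177), and MSRB5, which repairs oxidised methionine (-1.72 ± 0.16 SE, adjusted p = 0.0025). JRG21, an oxygenase that jasmonate induces, read 2.73, 9.51 and 1.67 in sps1 and 68.6, 73.4 and 54.1 in L17 (-1.99 ± 0.18 SE, adjusted p = 0.0025).

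OSM34, an osmotin-like protein, was higher in sps1. It read 2972, 3293 and 2705 in sps1 and 1204, 861 and 709 in L17, a rise of 1.71 ± 0.21 (SE, adjusted p = 0.00644), and the wild type arrays were higher than both lines at 6795, 5784 and 7249. SRX, the sulfiredoxin that restores peroxiredoxins, rose by 1.12 ± 0.11 (SE, adjusted p = 0.00312). CuAO1, a copper amine oxidase that degrades polyamines, rose by 1.20 ± 0.14 (SE, adjusted p = 0.00529). These 3 rises held with any array left out.

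**Figure D4:**
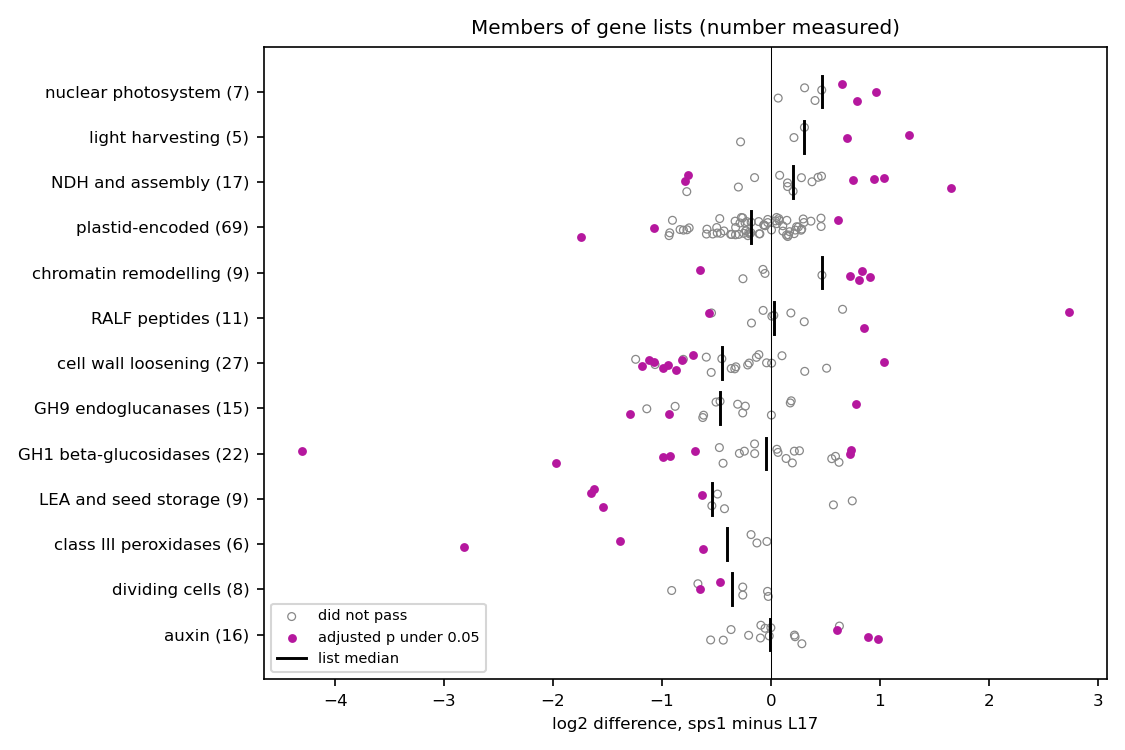
Log2 difference (sps1 minus L17) of each measured member of 13 gene lists, with filled points for members past an adjusted p of 0.05, open points for the rest and a bar at the list's median. The medians of the nuclear photosystem list (0.47) and the cell wall loosening list (-0.45) lie on opposite sides of 0, and single genes such as BGLU19 (-4.30) and RALFL32 (2.73) lie far outside their lists.

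Transport and primary metabolism were represented by changes of single genes. SWEET17, a fructose facilitator of the vacuole membrane, read 470.0, 392 and 506 in sps1 and 144, 149 and 130.0 in L17 (1.58 ± 0.14 SE, adjusted p = 0.00221). Of 14 SWEET genes 1 rose and 2 fell (leave-one-out range 1 to 2), and neither fall passed with all 9 arrays in the fit. MTP11, a manganese transporter, read 319, 339 and 329.6 in sps1 and 1225, 1309 and 1113 in L17 (-1.83 ± 0.12 SE, adjusted p = 0.000957). APS4 and APS3, forms of ATP sulfurylase, which activates sulfate, both fell, with log2 differences of -0.88 ± 0.12 and -1.69 ± 0.25 (SE, adjusted p = 0.00976 and 0.0117). APS3 lost the call without L17 replicate 2 (adjusted p = 0.0532), and APS4 lost it with the replicate number added to the fit. OCT1, a carnitine transporter, fell (-1.52 ± 0.21 SE, adjusted p = 0.00971).

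ATSPS4F, a sucrose phosphate synthase, was the 1 measured gene with SPS in its symbol, and the labels give no link between it and the name of the line. It read 54, 36.5 and 30.9 in sps1 and 99.4, 116 and 146 in L17 (-1.28 ± 0.20 SE, adjusted p = 0.0141), and it lost the call without L17 replicate 2 or sps1 replicate 2 (adjusted p up to 0.0566). Genes that dark starvation induces rose in 2 of 8 cases (leave-one-out range 0 to 2). MCCB, a subunit of the carboxylase of leucine breakdown, read 9984, 9299.9 and 9791 in sps1 and 5845, 5965 and 6119 in L17 (0.70 ± 0.11 SE, adjusted p = 0.0129). ETFQO, which passes electrons from amino acid breakdown to ubiquinone, rose by 0.86 ± 0.14 (SE, adjusted p = 0.017). MCCB lost the call without L17 replicate 2 or sps1 replicate 3 and ETFQO without L17 replicate 2 or 3 or sps1 replicate 3 (adjusted p up to 0.058 and 0.0694). None of 10 autophagy genes passed.

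Among regulators, ATC, a relative of the flowering repressor TFL1, read 4.45, 23.9 and 25.1 in sps1 and 229, 172 and 226 in L17 (-2.79 ± 0.29 SE, adjusted p = 0.00371). NRPE7, a subunit of RNA polymerase V of RNA-directed DNA methylation, read 18.5, 40.3 and 27 in sps1 and 149, 139.9 and 128 in L17 (-1.82 ± 0.19 SE, adjusted p = 0.00401). AGO7, the argonaute that makes trans-acting small RNAs for leaf development, read 4.75, 6.68 and 28.7 in sps1 and 96.2, 77.7 and 128 in L17 (-2.05 ± 0.32 SE, adjusted p = 0.0139), a call lost without sps1 replicate 2 (adjusted p = 0.0511) and with a pseudocount of 1. In all 3 genes the sps1 arrays were the low ones.

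In the other direction bHLH104, a transcription factor of the iron deficiency response, read 1622, 1178 and 1419.7 in sps1 and 499, 442 and 554 in L17 (1.46 ± 0.16 SE, adjusted p = 0.00446). LSH9, of a family named for light-dependent short hypocotyls, read 207, 223 and 219.9 in sps1 and 63.8, 58.6 and 71.7 in L17 (1.53 ± 0.12 SE, adjusted p = 0.00151). DI21, a drought-induced gene, read 585, 662 and 791 in sps1 and 142, 180.5 and 129 in L17 (2.06 ± 0.17 SE, adjusted p = 0.00199). No L17 array reached the lowest sps1 array in these genes, and the calls held with any array left out.

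Of 9 chromatin remodelling factors 4 rose and 1 fell (55.6% past the threshold, leave-one-out range 0 to 3), with a median of 0.47. Without L17 replicate 1 none rose and 1 fell. INO80, the ATPase of a nucleosome-moving complex, read 623, 554 and 522 in sps1 and 294, 366 and 352 in L17 (0.72 ± 0.14 SE, adjusted p = 0.0258). CHR18, chr31 and CHR42 also rose, and CHR17, of the ISWI class, fell (-0.65 ± 0.11 SE, adjusted p = 0.0156). Every one of these calls was lost with at least 1 array left out. INO80 lost it without any one array (adjusted p up to 0.074), CHR18 without any array other than L17 replicate 3 (up to 0.143), and chr31 without any array other than sps1 replicate 2 (up to 0.133). CHR42 lost it without L17 replicate 1 or 2 or sps1 replicate 2 or 3 (up to 0.087), and CHR17 without L17 replicate 2 or sps1 replicate 2 or 3 (up to 0.0672). CHR18 and chr31 did not pass with a pseudocount of 1, nor CHR42 with one of 64.

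Of 8 markers of dividing cells 2 fell and none rose (leave-one-out range 0 to 1), and all 8 differences were negative (median -0.36). AUR1, a kinase of mitosis, read 210.0, 211 and 201 in sps1 and 319.6, 337 and 344 in L17 (-0.65 ± 0.11 SE, adjusted p = 0.0168), and HTB11, a histone H2B, read 1267, 1287 and 1357 in sps1 and 1819.7, 1816 and 1772 in L17 (-0.46 ± 0.11 SE, adjusted p = 0.0444). AUR1 lost the call without L17 replicate 2 or sps1 replicate 2 or 3 (adjusted p up to 0.0695), and HTB11 without any one array (up to 0.139), after median centring, with a pseudocount of 1 and with all 9 arrays in the fit. In RNA from whole seedlings, fewer cells of a type and less RNA per cell cannot be told apart. None of 3 root genes passed, with log2 differences of -0.32 for EXPA7, 0.056 for PYK10 and -1.06 for EXPA18, of which the last was the lowest in adjusted p (0.157). No member passed in the lists of 3 Calvin cycle, 6 WRKY, 3 gibberellin, 3 beta-oxidation and 4 jacalin lectin genes either. These lists hold genes matched by symbol or synonym, so genes of the same families without such a name are not counted.

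Large families that act on secondary metabolites are to be read against 8.26% of all named genes and against the 177 of 1556 genes with a symbol that passed. Of 47 UDP-glycosyltransferases 2 rose and 4 fell (12.8%, leave-one-out range 2 to 5), and without sps1 replicate 3 the numbers were 3 and 2. Of 22 cytochromes P450 1 rose and 1 fell (9.09%, range 0 to 1), and of 29 serine carboxypeptidase-like genes 3 fell (10.3%, range 1 to 2). The shorter lists of 6 flavonoid and 10 glucosinolate genes each had 1 rise and 1 fall (range 0 to 1 for both). All of these were also counted in the glycosyltransferase list (UGT78D2 and UGT78D1, UGT74B1 and UGT74F1). UGT74F1 entered the glucosinolate list by its name alone, and its part in that pathway was not tested. Of 9 U-box ubiquitin ligases 2 fell (range 0 to 2). The lowest adjusted p among the carboxypeptidase-like genes was that of scpl20, with 84.8, 82.6 and 83.1 in sps1 and 207, 242 and 223 in L17 (-1.27 ± 0.11 SE, adjusted p = 0.00237). Its arrays hardly varied within a line. UGT85A5 fell (-1.10 ± 0.15 SE, adjusted p = 0.00921), and both calls held with any array left out.

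The genes past the threshold were spread unevenly over the genome, which the choice of arrays did not use. By the order of locus identifiers, 10.6% of 3411 named genes on chromosome 1 passed, 6.96% of 2169 on chromosome 2, 5.26% of 2720 on chromosome 3, 10.5% of 1935 on chromosome 4 and 7.95% of 2982 on chromosome 5. The share on chromosome 1 was 2.02 times that on chromosome 3. It was between 2.39 and 2.88 times with any one array left out, and 1.72 times among genes with a mean signal of at least 100. In 130 consecutive runs of 100 tested genes, the number past the threshold ranged from 0 to 20 with a median of 7.5. There were 13 runs with at least 15 such genes, 7 on chromosome 1, 2 on chromosome 2 and 4 on chromosome 4. No run on chromosome 3 held more than 8 and none on chromosome 5 more than 14. These shares are descriptions with no test, and neighbouring genes are not independent.

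**Figure D5:**
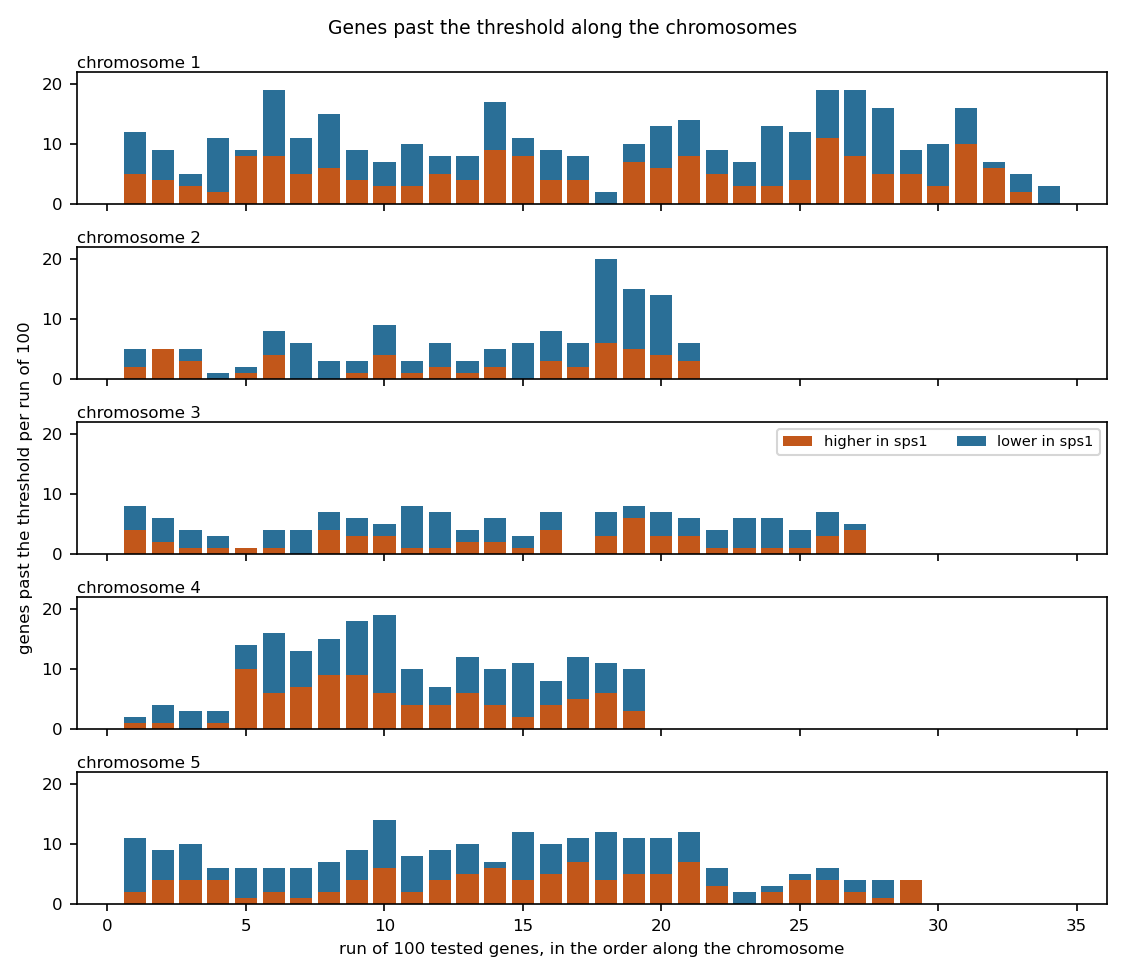
Number of named genes past the threshold in each run of 100 tested genes (vertical axis), in the order of genes along each chromosome (horizontal axis), split into those higher and those lower in sps1. The bars reach 20 near the end of chromosome 2 and stay at or under 8 on chromosome 3, and on chromosome 4 they step up after the first 4 runs.

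Chromosome 4 showed a step. In its first 400 tested genes, from AT4G00040 to AT4G08850, 12 passed (3.0%), while in the next 600, from AT4G08880 to AT4G20420, 95 passed (15.8%), 47 of them higher and 48 lower in sps1. The last 935 genes of the chromosome held 96 (10.3%). Stretches with similar shares lay on chromosome 1 from AT1G60570 to AT1G68330 (66 of 400, 16.5%, with 28 higher and 38 lower) and on chromosome 2 from AT2G38800 to AT2G44230 (49 of 300, 16.3%, with 15 higher and 34 lower). In contrast 8 of 300 (2.67%) passed from AT2G05000 to AT2G14420, and 34 of 782 (4.35%) at the end of chromosome 5 from AT5G51880. These stretches were drawn after the values were seen. Their shares were not computed again among genes with a mean signal of at least 100, so the part of low signals in the sparse stretches was not tested. RALFL32, OSM34, SWEET17, DI21, bHLH104, ChiC and NRPE7 all lie in the dense stretch of chromosome 4, as do AT4G13860, AT4G15680, AT4G17470, AT4G19240, AT4G19500 and AT4G19730 of the 30 largest changes.

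Neighbouring genes were compared in pairs. Over the 5 chromosomes, 1095 genes past the threshold had a next tested gene, and that gene passed too in 123 cases (11.2%, against 8.26% of all named genes), 73 in the same direction and 50 in opposite directions. The share was 15.2% on chromosome 1, where 10.6% of all named genes passed, and 15.8% on chromosome 4, where 10.5% did. It was 8.0% on chromosome 2 (6.96% of all), 4.9% on chromosome 3 (5.26%) and 7.17% on chromosome 5 (7.95%), so the next gene passed more often than the chromosome's own share on chromosomes 1, 2 and 4 and less often on chromosomes 3 and 5. DI21 (AT4G15910) and SWEET17 (AT4G15920) are such neighbours, and both rose. The strand that each probe set reads was not used, so signal shared by overlapping neighbours cannot be told apart from separate changes.

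In the 5 runs with most genes past the threshold, the widest differences included genes already named and several others. In the run from AT1G64360 to AT1G66510, AT1G65510 read 1434, 1383 and 1585 in sps1 and 157, 166 and 103 in L17 (3.25 ± 0.19 SE, adjusted p = 0.000807), and AT1G64680 read 1299, 1245 and 1132 in sps1 and 256, 285 and 321 in L17 (2.04 ± 0.13 SE, adjusted p = 0.000961). In the run from AT1G11710 to AT1G13650, AT1G12400 was the widest, with 51.7, 48.4 and 49.1 in sps1 and 575, 570.5 and 651 in L17 (-3.22 ± 0.11 SE, adjusted p = 0.000214). Rises and falls both occurred in the dense runs, though not in equal number. The run from AT2G38800 to AT2G40580 held 20 genes past the threshold, 6 higher and 14 lower in sps1. In it AT2G39210 read 213, 125 and 195 in sps1 and 1849.6, 2719 and 2533 in L17 (-3.63 ± 0.24 SE, adjusted p = 0.000961), and MTP11, which also fell, lies in the same run.

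The wild type arrays are set beside both lines as a description. Of the 483 named genes higher in sps1, the wild type mean was nearer to L17 in 261 and nearer to sps1 in 222 (46.0%). Of the 620 lower in sps1, it was nearer to L17 in 374 and nearer to sps1 in 246 (39.7%). With wild type replicates 1 and 2 alone the numbers were 265 and 218, and 378 and 242. No test was made, since the genes were selected by the difference between the lines and share their arrays.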

How the data were processed

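One-colour Affymetrix arrays were made from biotin-labelled RNA of whole seedlings, per the labels' protocols. The deposited values are linear intensity values per probe set, and the submitters' processing notes name GCOS. Neither the algorithm nor a scaling target is given in the sources used here. The values were already scaled (2% trimmed mean 500.04 to 500.05 on every array) and were not normalized again. Lines came from the sample titles, and no 2 arrays were identical.

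After removal of 64 control probe sets, limma 3.58.1 in R 4.3.3 was fitted to log2(signal + 16) of the 6 arrays, with Benjamini-Hochberg adjustment over 22746 probe sets and a threshold of 0.05. The log2(signal + 16) scale understates changes of dim genes. The fit was tested on simulated data. Genes came from the platform annotation and RefSeq (TAIR10.1, names and order only): 13513 probe sets named 1 gene, 503 several and 8730 none here. Where several probe sets named a gene, the one with the highest mean signal was used. Same-numbered arrays did not deviate together (r of -0.05, 0.01 and -0.06) and were not paired.

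Named were the 15 largest rises and falls without overlap, up to 6 members of each list with the smallest adjusted p, the 3 widest genes of the 5 densest runs and genes with SPS in the symbol. The 25 largest rises and 25 largest falls with a symbol, further list members and the genes near the floor were named after their values were seen. The comparison, members and lists were chosen with earlier results of these data known, and some lists were written after annotation and values had been seen. Alternatives were other pseudocounts, a signal filter, other scalings and moderations, array weights, all 9 arrays, a replicate block, each array left out, all probe sets of a gene, and stricter thresholds.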

Additional observations from a re-analysis of the deposited data

How the results depend on the processing

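No gene named as past the threshold changed sign under any alternative run, and no probe set past the threshold in an alternative had the opposite sign. Against 2074 probe sets past the threshold (906 higher, 1168 lower), there were 3123 (1414 higher) with a mean signal of at least 100, 1304 (572 and 732) with a pseudocount of 1, 3092 (1364 higher) with a pseudocount of 64, 3374 (1505 and 1869) with trended and robust moderation, 598 (246 and 352) at an adjusted p of 0.01, and 915 (344 and 571) at 2-fold or more. Array weights, the fit of all 9 arrays, median centring and quantile normalization gave 2501, 1560, 2083 and 2053. Median centring turned the balance, to 1182 higher and 901 lower. The balance of rises and falls also turned under at least 1 alternative in the lists of SWEET genes, UDP-glycosyltransferases, chromatin remodelling factors and glutathione S-transferases. With each array left out the range was 843 to 1283, with 366 to 569 higher and 477 to 714 lower. These fits have fewer arrays. The replicate block gave 797 (311 and 486), of which 774 were also past the threshold without it. Under the block the ratio of chromosome 1 to chromosome 3 was 3.3, the photosystem list had 0 genes past the threshold and the NDH and assembly list 2. The block leaves fewer degrees of freedom, and the numbers were not shown to pair arrays. Calls lost under the block are not given for most genes above. PSB27 and APS4, whose calls held with any one array left out, were among those lost. With a pseudocount of 1 the photosystem list also had 0. With each array left out that list had 0 to 2, the NDH list 1 to 6, cell wall loosening 6 to 8, and the seed list 3, while the chromosome ratio was 2.39 to 2.88. The ratio was 1.72 with a mean signal of at least 100 and 1.82 with a pseudocount of 64. Trended and robust moderation gave 1.89 and array weights 1.9. Of 36 further lists 29 had a gene past the threshold, and in 26 of these the count moved by over 1.5 times with an array left out. Of 149 named and list genes past the threshold, 76 remained so with any one array left out and 73 did not. The cause of the differences between settings was not tested. Precision is limited by 3 arrays a line, signals under 16 carry little information on fold, and 963 probe sets past the threshold had no single gene name.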
